A study of Mus musculus with 2 samples.

Results

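The Wnt ligands, their Frizzled and LRP receptors and the SFRP and DKK inhibitors were examined for POU3F1 occupancy in the embryonic mouse retina. The set was 36 genes chosen by name: 19 Wnt ligands, 10 Frizzled receptors, the co-receptors Lrp5 and Lrp6, and 5 secreted inhibitors. Of these, 5 had a row among the 2323 genes of the authors' table of gene-peak pairs, with 10 of the 2652 peaks. The other 31 had no row and therefore no assigned peak.

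Occupancy was measured by CUT&RUN, in which an antibody directs a nuclease to its target on chromatin and the released fragments are sequenced. There was 1 library with an antibody to POU3F1, a POU-domain transcription factor, and 1 with rabbit IgG as control, both from wild-type CD1 retina at embryonic day 14. The number of pooled embryos is not given in the sources used here, and no value of the IgG library was used directly. The deposited folds and q-values may include it, since the control of the peak calling is not stated. With 1 peak list no replicate comparison and no test between antibodies could be made, and genes and peaks of 1 list are not replicates. All counts below are therefore descriptions of this list.

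Wnt proteins are secreted lipid-modified signals. They bind Frizzled receptors, and in the canonical branch also an LRP co-receptor, which leads to stabilisation of beta-catenin and to transcription through TCF/LEF factors. SFRP proteins resemble the Wnt-binding domain of Frizzleds and bind Wnts outside the cell, while Dkk1 and Dkk2 act on the LRP co-receptors. In the eye, Wnt signalling acts in the pigment epithelium and the ciliary margin, in retinal progenitors, in the retinal vasculature, and as a guidance cue for retinal axons at their targets.

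Promoter sequences of 5 genes are shown because they bear on where peaks did and did not lie. Fzd1, Dkk1 and Dkk2 are the members that had both an assigned peak and a promoter in the RefSeq table. Sfrp2 is the single member whose promoter held the octamer ATGCAAAT, the classical POU-factor recognition sequence. Lgr4, an R-spondin receptor gene of the wider pathway, had a promoter under a strong peak. Each is the 250 bases upstream of the start site (RefSeq, GRCm38.p6, the assembly of mm10), 5′ to 3′ on the strand of the gene. Capitals mark the octamer, its half-site ATGCA, or the TCF core CTTTGA, on either strand; the half-site is part of the octamer and also occurs alone.
Fzd1, chr5:4758217-4758466, minus strand: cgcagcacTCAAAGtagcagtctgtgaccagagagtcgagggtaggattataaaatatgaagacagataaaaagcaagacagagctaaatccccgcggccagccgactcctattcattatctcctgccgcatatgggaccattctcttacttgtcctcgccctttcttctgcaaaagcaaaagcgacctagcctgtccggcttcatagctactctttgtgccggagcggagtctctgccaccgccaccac
Dkk1, chr19:30549497-30549746, minus strand: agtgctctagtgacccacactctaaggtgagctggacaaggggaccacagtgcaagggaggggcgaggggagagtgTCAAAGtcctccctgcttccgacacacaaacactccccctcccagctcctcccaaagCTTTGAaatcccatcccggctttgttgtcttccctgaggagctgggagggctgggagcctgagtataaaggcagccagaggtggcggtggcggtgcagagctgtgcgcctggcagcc
Dkk2, chr3:132085042-132085291, plus strand: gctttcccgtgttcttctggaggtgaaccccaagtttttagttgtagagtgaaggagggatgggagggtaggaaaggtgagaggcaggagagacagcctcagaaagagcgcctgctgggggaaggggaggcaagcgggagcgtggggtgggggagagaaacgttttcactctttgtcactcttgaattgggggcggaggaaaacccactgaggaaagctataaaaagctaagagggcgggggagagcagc
Sfrp2, chr3:83766071-83766320, plus strand: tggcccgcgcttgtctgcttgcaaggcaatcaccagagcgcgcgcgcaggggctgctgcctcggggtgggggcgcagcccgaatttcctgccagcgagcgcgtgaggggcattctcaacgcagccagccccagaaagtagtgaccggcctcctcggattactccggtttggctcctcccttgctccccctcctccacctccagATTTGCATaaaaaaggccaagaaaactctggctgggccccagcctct
Lgr4, chr2:109917397-109917646, plus strand: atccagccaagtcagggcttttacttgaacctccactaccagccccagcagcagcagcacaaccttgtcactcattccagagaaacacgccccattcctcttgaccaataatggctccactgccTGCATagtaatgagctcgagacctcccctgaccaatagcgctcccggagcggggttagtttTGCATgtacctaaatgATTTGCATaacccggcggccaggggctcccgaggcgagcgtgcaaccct

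The RefSeq table held 27 promoters of 24 members and lacked those of the others, Fzd8 and Dkk3 among them. None of the 27 member promoters overlapped a peak, against 214 of all 32851 promoters, so a count of 0 does not set them apart. The octamer stood in 1 of them, that of Sfrp2, 47 bases upstream of the start, against 526 of all 32851 promoters (1.6%). The nearest peak lay 206 kb from the body of Sfrp2. The half-site ATGCA occurred in the same single member promoter, against 28.8% of all promoters. The TCF core was found in the promoters of Dkk1, Fzd1, Wnt5b and Wnt11, 4 of 27, against 13.8% of all. A match describes letters in this window and is not evidence of a site.

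Ligand genes came out without any assigned peak. All 19 Wnt genes, from Wnt1 to Wnt16, had none, a share of 0%. A count of 0 taken as up to 3 genes allows 15.8%, and the exact 95% interval ends at 17.6%. Of 21900 protein-coding genes in RefSeq, 2231 had an assigned peak, a background of 10.2%. That background lies below both limits, so a lower share among ligands was not detectable with 19 genes. Intervals and limits of this kind cover counting error only. They treat genes as independent, although neighbouring genes can share a nearest peak.

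The distance from each ligand gene to the nearest peak, whichever gene that peak was assigned to, was long. It was measured from the gene body in RefSeq to the edge of the interval. The lowest was 149 kb at Wnt8b, the median 802 kb, and the highest 2072 kb at Wnt5a, a ligand of the non-canonical branch. Among all protein-coding genes the median was 627 kb (quartiles 229 and 1340 kb), and 13 of the 19 ligands lay farther away than that median. Ligand genes lie in part as close neighbours, and 8 of them form 4 pairs with the same nearest peak: Wnt1 with Wnt10b, Wnt3 with Wnt9b, Wnt3a with Wnt9a, and Wnt6 with Wnt10a. The 19 genes therefore had 15 distinct nearest peaks.

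Within 500 kb of the gene body, 4 of 19 ligand genes had a peak (21.1%, 95% exact interval 6.05 to 45.6%), against 43.3% of protein-coding genes. Wnt8b had one of 4.74-fold, where fold is the value deposited by the authors for the enrichment of a summit above its local background. It had been assigned to Pax2, a gene of optic stalk development, 92992 bp upstream of its transcription start site (TSS), and to Hif1an. Wnt3a (293 kb) and Wnt9a (352 kb) shared a 9.07-fold peak that lay 137 bp upstream of the histone gene Hist3h2a. Wnt2b, which marks the ciliary margin of the retina, was 447 kb from a 7.37-fold peak assigned to the potassium channel gene Kcnd3. None of these peaks was paired with a Wnt gene by the authors' rule, in which the domain of a gene stops at that of its neighbour.

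Among the remaining ligands, the nearest peak of Wnt7b was at 613 kb, that of Wnt3 at 671 kb and that of Wnt7a at 802 kb. Wnt3 is known for its part in mapping retinal axons in the tectum. For 7 ligand genes, Wnt2, Wnt4, Wnt5a, Wnt5b, Wnt8a, Wnt11 and Wnt16, no peak lay within 1000 kb. The other 12 of 19 (63.2%) had one there, close to the 65.9% of protein-coding genes. Wnt16 was 1084 kb from a 5.81-fold peak assigned to Fezf1.

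**Figure D1:**
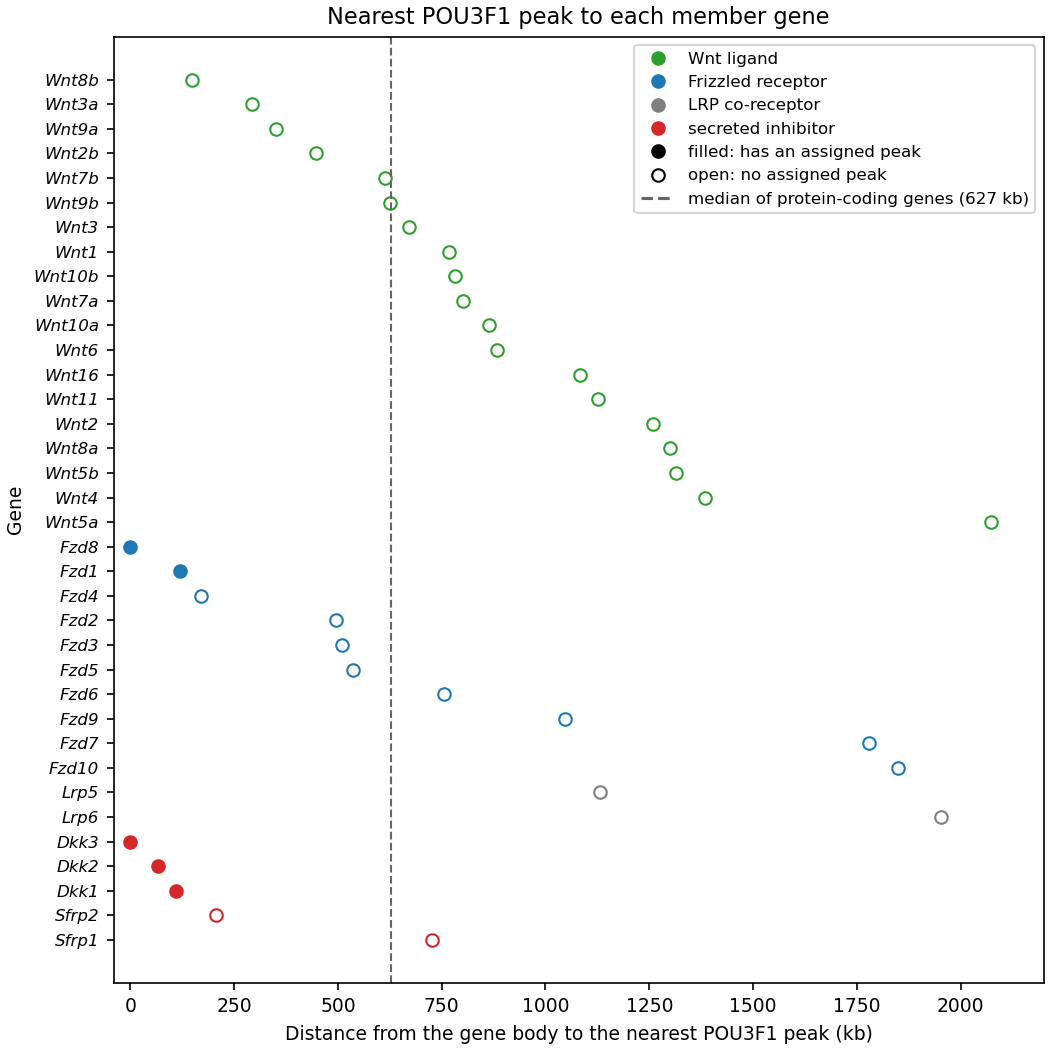
Distance in kb from the body of each of the 36 genes (rows, coloured by role) to the nearest POU3F1 peak; filled points have an assigned peak, open points none, and the dashed line is the median of protein-coding genes (627 kb). The 5 filled points sit at or below 119 kb, and no Wnt ligand lies closer than 149 kb.

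Of the receptors, 2 of 10 Frizzled genes had an assigned peak (95% exact interval 2.52 to 55.6%, which includes the 10.2% of protein-coding genes), and neither of the 2 LRP co-receptors did. Fzd8, a receptor expressed in early retinal progenitors, had the promoter-proximal peak of the set. The interval chr18:9212098-9212349 (252 bp) lay 633 bp upstream of its TSS and was assigned to no other gene. It had 5.69-fold enrichment, below the median of 6.37 over all peaks, and a deposited −log10 q-value of 4.93. A summit pileup of 11 fragments over a background of 1.11 was recovered from the deposited fold and p-value, so this peak rests on few fragments. A peak within 5 kb of the TSS was assigned to 1.4% of protein-coding genes.

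Fzd1 had 2 distant upstream peaks, both inside the neighbouring Cdk14, a cyclin-dependent kinase gene, and both also assigned to it. The stronger, chr5:4876989-4878140, lay 119529 bp upstream of the TSS of Fzd1 with 12.1-fold enrichment and a summit pileup of 39 fragments; 87.0% of all peaks had a lower fold. The other, chr5:5064454-5065223, lay 306803 bp upstream with 7.83-fold and 35 fragments. The TSS of Fzd1 was the nearer one for both, at 502633 and 315359 bp from that of Cdk14. The Fzd1 promoter shown above was not under a peak.

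The other 8 Frizzled genes and both co-receptors had no assigned peak. Fzd4, the receptor for Norrin in the retinal vasculature, was nearest to one, 170 kb from a 7.86-fold peak assigned to Me3 and Prss23. Fzd5, which acts with Fzd8 in retinal progenitors, was 537 kb from a 4.91-fold peak assigned to Klf7 and Creb1, and Fzd3, which acts in axon tract formation, was 509 kb from an 8.50-fold peak assigned to Kif13b and Hmbox1. Fzd2 lay at 495 kb, Fzd6 at 756 kb and Fzd9 at 1046 kb. Fzd7 (1779 kb), Fzd10 (1848 kb), Lrp5 (1132 kb) and Lrp6 (1952 kb) were far from any peak. The Lrp6 distance was second only to that of Wnt5a among the 36 genes.

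Secreted inhibitors among the members had an assigned peak in 3 of 5 cases (60.0%, 95% exact interval 14.7 to 94.7%): Dkk1, Dkk2 and Dkk3. The share was 10.2% over all protein-coding genes and 30.4% among those with the longest loci, where 4 of these 5 genes belong (all but Dkk3). Of the 10 further inhibitors in the wider pathway list described below, 2 had an assigned peak (20.0%). Together Dkk1, Dkk2 and Dkk3 held 7 of the 10 member peaks. Dkk1, an antagonist of the LRP co-receptors required for head formation, had 4. The strongest of all 10, chr19:30982238-30983465 (1228 bp), lay 433186 bp upstream of Dkk1 with 19.9-fold enrichment, a −log10 q-value of 322 and a summit pileup of 357 fragments. It ranked 117 of 2652 by fold. It lay inside Prkg1, a protein kinase gene, and the TSS of Cstf2t was nearer, with the peak 99990 bp upstream of it.

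The remaining Dkk1 peaks were weaker. On the same side, chr19:30912091-30912371 lay 362566 bp upstream with 3.93-fold, 7 fragments and a −log10 q-value of 1.49, the weakest of the 10 peaks, also inside Prkg1 and also nearer to Cstf2t. On the downstream side, chr19:30419712-30420126 (129746 bp, 10.3-fold, 20 fragments) and chr19:30435244-30435617 (114235 bp, 6.44-fold, 22 fragments) were also assigned to Mbl2, a lectin gene, but Dkk1 had the nearer TSS. No Dkk1 peak lay within 100 kb of the TSS, and the promoter shown above was free of peaks.

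Dkk2, which is required in the ocular surface to limit Wnt signalling, had 1 peak at chr3:132018601-132018970. It lay 66507 bp upstream of the TSS with 7.37-fold enrichment and 19 fragments. It was also assigned to Papss1, whose TSS was 454017 bp away.

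Dkk3, a divergent member of the family, had 2 peaks inside its own gene body. The nearer, chr7:112144620-112144867, lay 14314 bp downstream of the TSS with 5.89-fold enrichment and 11 fragments over a background of 1.04. The other, chr7:112129974-112130253, lay 28944 bp downstream with 6.28-fold and 44 fragments over 6.17. The distances also matched these intervals the other way round, on the plus strand, but both peaks were assigned to Usp47 as well, and a Dkk3 TSS on that strand would stand between Usp47 and the peaks and end its domain. The inhibitors without a peak were Sfrp2, 206 kb from a 16.5-fold peak assigned to Tmem131l and Tlr2, and Sfrp1, 726 kb from a 15.2-fold peak assigned to Ikbkb and Polb.

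**Figure D2:**
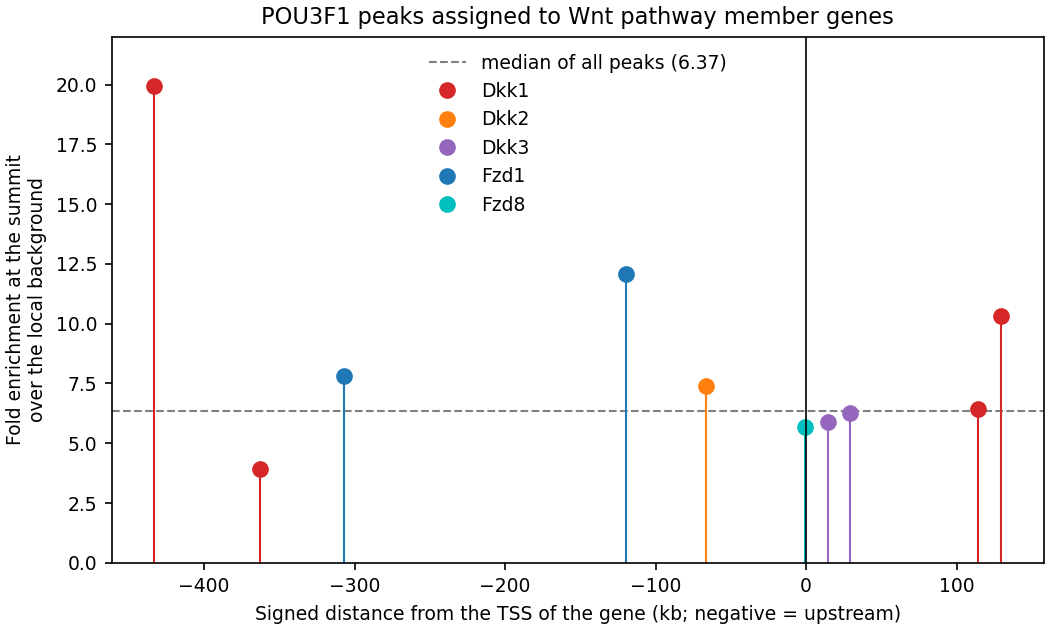
Fold enrichment at the summit (vertical axis) of the 10 assigned peaks against their signed distance in kb from the TSS of the gene (horizontal axis, negative upstream), coloured by gene; the dashed line is the median fold of all peaks (6.37). Fzd8 alone has a peak at the TSS, and the highest point is the Dkk1 peak at 19.9-fold.

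Compared with the whole list, the 10 peaks were near the middle in fold and pileup. Their median fold was 6.91, against 6.37 over all peaks, and 6 of 10 were above that value. A fold of at least 10 was reached by 3 of them, 2 at Dkk1 and 1 at Fzd1, against 18.7% of all peaks. The median summit pileup was 21 fragments, against 19. The median distance to the TSS of the member was 117 kb, against 165 kb over all pairs, and 7 of 10 pairs spanned more than 50 kb, against 76.9% of all pairs. Of the 10 peaks, 9 were assigned to a second gene as well, against 71.0% of all placed peaks. In 8 of the 10 the member had the nearest TSS. Over the whole list, the 4307 linked pairs lay on 2507 peaks, each with a nearest TSS, so being the nearest gene was common among pairs.

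Genes with long loci had a peak more often, counting as locus the gene plus the gaps to its protein-coding neighbours. By the authors' rule a domain grows into these gaps, so a longer locus can be assigned more peaks by the rule itself. Protein-coding genes were split by locus length into 5 classes of equal size. In the longest class (222 kb and more) 30.4% had an assigned peak, in the next 9.48%, and in the 3 shorter classes 4.5%, 2.9% and 3.7%. Among the members, 4 of 10 in the longest class had a peak (Fzd1, Fzd8, Dkk1 and Dkk2), 1 of 13 in the next (Dkk3), and 0 of 13 in the shorter ones. Of the 19 ligand genes, 11 were in the 3 shorter classes, and Wnt4, Wnt5a and Wnt7b were in the longest. The median locus was 78.6 kb for ligands, 121 kb for Frizzled genes, 151 kb for the co-receptors and 388 kb for the inhibitors. Over all 36 members the share was 13.9% (5 genes, 95% exact interval 4.67 to 29.5%), which includes the background of 10.2%. Locus length moved with role, and its part in these counts was not tested.

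**Figure D3:**
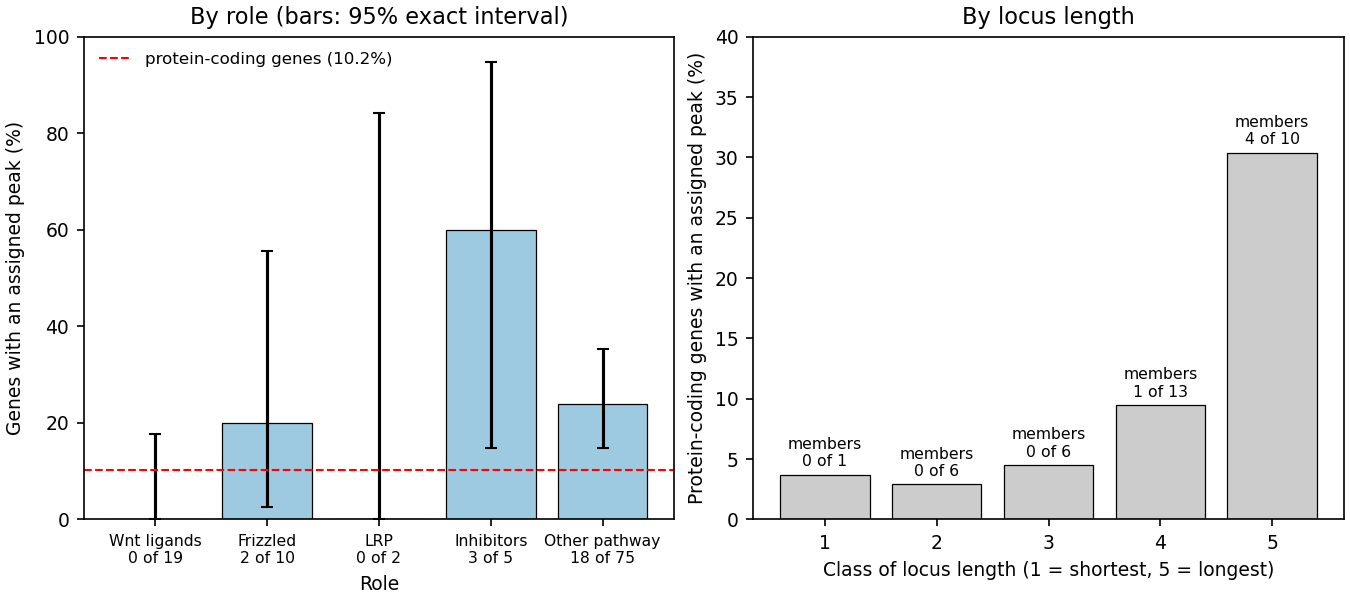
Left, percent of genes with an assigned peak by role with 95% exact binomial intervals, beside the protein-coding background (dashed, 10.2%); right, the percent of protein-coding genes with a peak by class of locus length (1 shortest, 5 longest), with the members' counts above each bar. Inhibitors among the members stand highest at 3 of 5 and ligands at 0 of 19, and 4 of the 5 members with a peak fall in the longest class. The 10 further inhibitors, 2 of them with a peak, are counted under the other pathway genes.

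Counted without regard to assignment, 3 members (Fzd8, Dkk2 and Dkk3) had a peak within 100 kb of the gene body, against 13.9% of protein-coding genes. None of the 31 members without an assigned peak did. Those 31 were defined by having none assigned. The share among protein-coding genes of that kind was not computed, so nothing is read from their count. The exact 95% interval of the 3 of 36 was 1.75 to 22.5%. Within 500 kb it was 12 of 36 (18.6 to 51.0%), against 43.3%, and within 1000 kb 24 of 36 (49.0 to 81.4%), against 65.9%. Each interval includes its background, but treats genes as independent although some share a peak.

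Counts of assigned genes depended on strength and distance. All 5 members kept a peak at a q-value under 0.01 (10% of protein-coding genes) and under 0.001 (9.6%), within 500 kb of the TSS (9.51%), and when a peak counted for the nearest TSS alone (6.76%). With a fold of at least 10, Fzd1 and Dkk1 kept one (2 of 36, against 2.79%). Within 50 kb of the TSS, Fzd8 and Dkk3 did (2 of 36, against 3.66%).

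The wider pathway was described with a list of 75 further genes. They were chosen with earlier results of these data known, so their shares describe this list only and were not tested. Of these genes, 18 had an assigned peak (24.0%, 95% exact interval 14.9 to 35.3%, against 10.2% of protein-coding genes). They held 80 peaks of median fold 6.38. By locus length, 14 of 32 in the longest class had one, where the background was 30.4%, and 4 of 43 in the others. By role, 5 of 12 nuclear factors had a peak, 4 of 18 transduction and destruction complex genes and 2 of 10 planar polarity genes. So did 2 of 11 alternative receptors, 2 of 10 further inhibitors, 1 of 9 R-spondin arm genes and 1 of 4 genes of ligand secretion. The remaining gene with a peak was Smo, a Frizzled-class receptor of Hedgehog signalling, with a weak one of 1.66-fold. The secretion gene was Wls, the carrier that brings Wnts to the cell surface, with a 4.55-fold peak 12201 bp downstream. The nuclear factors alone held 51 of the gene-peak pairs.

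Of the 75 further pathway genes, 5 had an assigned peak at most 5 kb from their TSS: Lgr4, Gsk3a, Tcf7l2, Tle3 and Tle4. By the same rule the share of protein-coding genes was 1.4%. Because the list was chosen with earlier results known, the difference was not tested. Tcf7l2, a nuclear effector of beta-catenin, had 12 peaks, the strongest at chr19:55555554-55557010 (37.0-fold, 185528 bp upstream) and one over the TSS (13.0-fold). Gsk3a, a kinase related to that of the destruction complex, had a 10.3-fold peak 497 bp upstream. The corepressor genes Tle3 and Tle4 had peaks 2473 bp upstream (3.49-fold) and 218 bp upstream (5.20-fold), besides distant ones. By highest fold, Ctnnb1, which encodes beta-catenin, followed Tcf7l2 with a 30.5-fold peak 313513 bp upstream that lay nearer to Rpl14. Tle1 had one of 27.0-fold, 360341 bp downstream, that lay nearer to Gm11232 (82551 bp).

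Lgr4, which encodes a receptor for R-spondins, secreted enhancers of Wnt signalling, had 8 peaks over its promoter and gene body. The one at the promoter, chr2:109917217-109917939, had its midpoint 69 bp upstream of the TSS, with 17.0-fold enrichment and a summit pileup of 112 fragments. It covered all 250 bases printed above, which hold the octamer as ATTTGCAT on the strand shown, 49 bases upstream of the start, and 2 further half-sites. The strongest Lgr4 peak, chr2:109989277-109990262, lay 72122 bp downstream (20.5-fold, 51 fragments). It was also assigned to Ccdc34, whose TSS was nearer, at 28048 bp. Of 214 promoters that overlapped a peak by at least 1 base, 44 held the octamer (20.6%), and with histone gene promoters left out 32 of 178 did, against 1.6% of all promoters. Of the 78 promoters of the further pathway genes, 3 overlapped a peak (Lgr4, Tcf7l2 and Tle4), against 214 of all 32851 promoters. Among the 78, that of Lgr4 alone held the octamer.

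**Figure D4:**
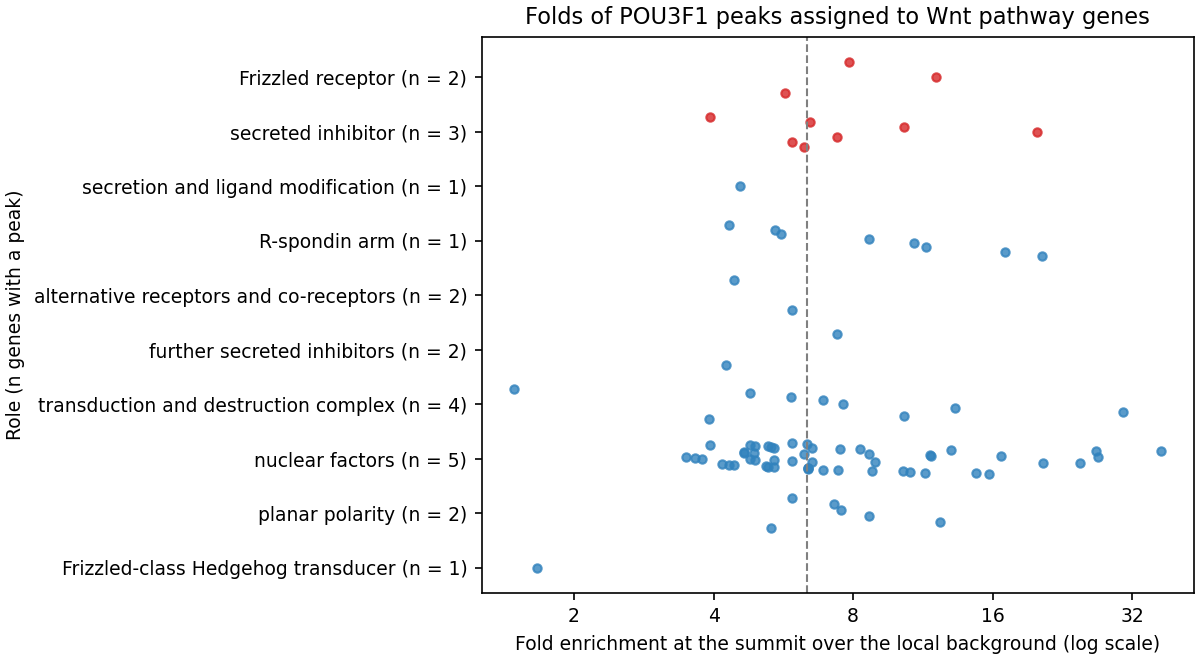
Fold enrichment of each assigned peak (horizontal axis, log scale) by role of the gene, members in red and further pathway genes in blue, with the number of genes in brackets; the dashed line is the median fold of all peaks (6.37). Nuclear factors hold most points and reach 37.0-fold, while Frizzled receptors reach 12.1-fold and the secreted inhibitors among the members 19.9-fold.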

How the data were processed

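CUT&RUN libraries were paired-end, per the labels' protocols. Bowtie2, MACS2 and deepTools are named without versions, with build mm10, per the submitters' processing notes. The authors' deposited peak list gave for each interval a fold (a ratio over local background), the −log10 p-value and q-value, a score and the summit offset. Whether IgG served as control for peak calling is not stated there. The authors' table of gene-peak pairs was made with GREAT 4.0.4 on mm10, per the file headers: domains start as 5000 bp upstream plus 1000 bp downstream of a TSS, grow by at most 1000000 bp, and include curated ones.

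To link distances to intervals, a TSS and strand near each RefSeq gene were sought from which every distance of that gene ended at an interval midpoint; 4307 of 4427 pairs were linked so. A placement that put the TSS between a shared peak and the TSS of its other gene was dropped. Summit pileups were recovered for 2604 of 2652 peaks (98.2%) as the whole number whose Poisson p-value matched within 0.001. Both steps were tested on simulated data. The simulated backgrounds were lower than those of some peaks, so peaks of high background were not covered. Linking was simulated with a smaller search distance around the gene than was used here. Library depth is unknown. Gene bodies and promoters came from RefSeq (GRCm38.p6), in which all 36 members matched by symbol. Python 3.11.15, pandas 2.3.3 and scipy 1.17.1 were used.

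Each member was described, and each peak of a member was named. Of the further genes, those with a peak within 5 kb of the TSS or among the 5 of highest fold were named, with Wls and Smo, chosen after their values were seen. Members and lists were chosen with earlier results of these data known. No test was run, since there was 1 peak list.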

Additional observations from a re-analysis of the deposited data

How the results depend on the processing

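Stricter q-values (under 0.01 or 0.001), assignment within 500 kb of the TSS, and counting the nearest TSS alone left each count of genes within 1.5 times its value. The 6 alternatives set on assignment or strength only remove pairs. The number of Wnt ligands with an assigned peak, 0 at the start, could therefore not change under them. With a fold of at least 10, 2 members (Fzd1 and Dkk1; background 2.79%) kept a peak: 1 receptor and 1 inhibitor, with 3 peaks, and 8 of the further pathway genes did. Within 50 kb of the TSS, 2 members (Fzd8 and Dkk3; background 3.66%) did: 1 receptor and 1 inhibitor, with 3 peaks, and 10 further genes. A count of any peak near the gene body was chosen after seeing the data. It gave 3 members, 1 receptor, 4 peaks and 22 of the 75 further genes within 100 kb (background 13.9%). Within 500 kb it gave 12 members, 4 ligands, 4 receptors, 18 peaks and 45 of the 75 further genes (background 43.3%). The median fold was 7.37 at a q-value under 0.001 and 6.83 without Dkk1. The median distance was 114 kb at that q-value and 47.7 kb without Dkk1, so it rests on that gene. Depth limits single peaks: the Fzd8 peak and 1 of the Dkk3 peaks have 11 fragments each, and the weakest Dkk1 peak 7.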
